A study of Rattus norvegicus with 8 samples.

Results

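The core neuronal miRNA arms examined here were rno-miR-124-3p, rno-miR-124-5p, rno-miR-9a-5p, rno-miR-9a-3p, rno-miR-128-3p, rno-miR-128-2-5p, rno-miR-137-3p, rno-miR-138-5p and rno-miR-153-3p. They were chosen by name, and they make up 9 of the 758 rat miRNAs on the array. Their levels were measured in the left medial vestibular nucleus (MVN), a brainstem nucleus supplied by the vestibular nerve, of male Sprague–Dawley rats aged 7 weeks. In the unilateral vestibular deafferentation (UVD) group, the left labyrinth was opened and destroyed with ethanol. In the sham operation (SO) group, the same surgery was done on the left side, without opening the vestibule and without ethanol. MVNs were taken 4 h or 4 d after surgery, which gave 4 groups of 2 arrays, and every array held RNA pooled from 3 rats. Anesthesia and removal of the middle ear structures were thus common to all 4 groups, no group was left unoperated, and the MVN of the opposite side was not analysed here.

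miRNAs are short RNAs that guide repressor complexes to messenger RNAs, and bases 2 to 8 of the mature strand, the seed, direct most of this pairing. Each precursor hairpin can give a 5p and a 3p arm, of which one usually accumulates. miR-124 and miR-9 are best known for promoting and holding neuronal identity, whereas miR-128, miR-137, miR-138 and miR-153 are known as regulators of excitability, dendrites, spines and transmitter release in differentiated neurons.

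Mature sequences of 7 of the 9 arms were taken from RefSeq (GRCr8). They are shown because the arms are treated as one neuronal set although no seed is shared. Each is written from its 5′ end with the seed in capitals.
rno-miR-9a-5p: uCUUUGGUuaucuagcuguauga
rno-miR-9a-3p: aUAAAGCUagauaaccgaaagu
rno-miR-128-3p: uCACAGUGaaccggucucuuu
rno-miR-128-2-5p: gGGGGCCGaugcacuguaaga
rno-miR-137-3p: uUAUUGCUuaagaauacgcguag
rno-miR-138-5p: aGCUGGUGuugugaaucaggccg
rno-miR-153-3p: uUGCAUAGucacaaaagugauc

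The 7 seeds were all distinct, and no other tested miRNA with a sequence carried one of them. GC content ranged from 31.8% in rno-miR-9a-3p to 61.9% in rno-miR-128-2-5p, beside a median of 47.6% over the 385 tested miRNAs with a sequence. The sequence of rno-miR-137-3p lies on chromosome 2 at 209165767 to 209165789 (GRCr8, plus strand), within the long noncoding RNA gene LOC120100931. rno-miR-153-3p lies on chromosome 6 at 144306646 to 144306667 (plus strand), within the span of Ptprn2. rno-miR-138-5p has 1 copy on chromosome 8 and 1 on chromosome 19, the latter within the span of Slc12a3. rno-miR-128-3p has 1 copy within R3hdm1 and 1 within Arpp21, and both arms of miR-9a have 3 copies.

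All 8 arrays were on 1 slide and were read in 1 scan. The UVD arrays lay in slide row 2 and the SO arrays in row 1, and the 4 h arrays lay in columns 3 and 4 and the 4 d arrays in columns 1 and 2, so operation and timepoint cannot be told apart from the position on the slide. Between 378 and 430 miRNAs were detected per array, and 422 were tested, each detected on all arrays of 1 or more groups. Values are quantile-normalized intensities of the total gene signal, and differences are log2 fold changes from limma with Benjamini-Hochberg adjusted p over all 422. Intensities of different miRNAs are not compared with each other, since each is read by its own probes. A change in such bulk tissue can come from fewer cells of a type or from less of the miRNA per cell, and these cannot be told apart.

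Of the 9 arms, 8 were detected on every array. Among them, only rno-miR-137-3p passed the test, and only in the SO group, where it fell between 4 h and 4 d after the sham operation. No arm passed in the UVD group between the timepoints, and none passed between the operations at either timepoint. rno-miR-124, rno-miR-9a and rno-miR-128-3p varied little on the normalized scale: for rno-miR-124-3p, the highest array stood 1.32 times above the lowest, for rno-miR-128-3p 1.18 times, and for rno-miR-9a-5p and rno-miR-9a-3p 1.08 and 1.05 times. The same ratio was 2.21 for rno-miR-137-3p, 1.44 for rno-miR-153-3p and 1.18 for rno-miR-138-5p. Before normalization the bright arms varied more, with total gene signals from 20973 to 32519 for rno-miR-124-3p and from 13658 to 23667 for rno-miR-9a-3p.

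**Figure D1:**
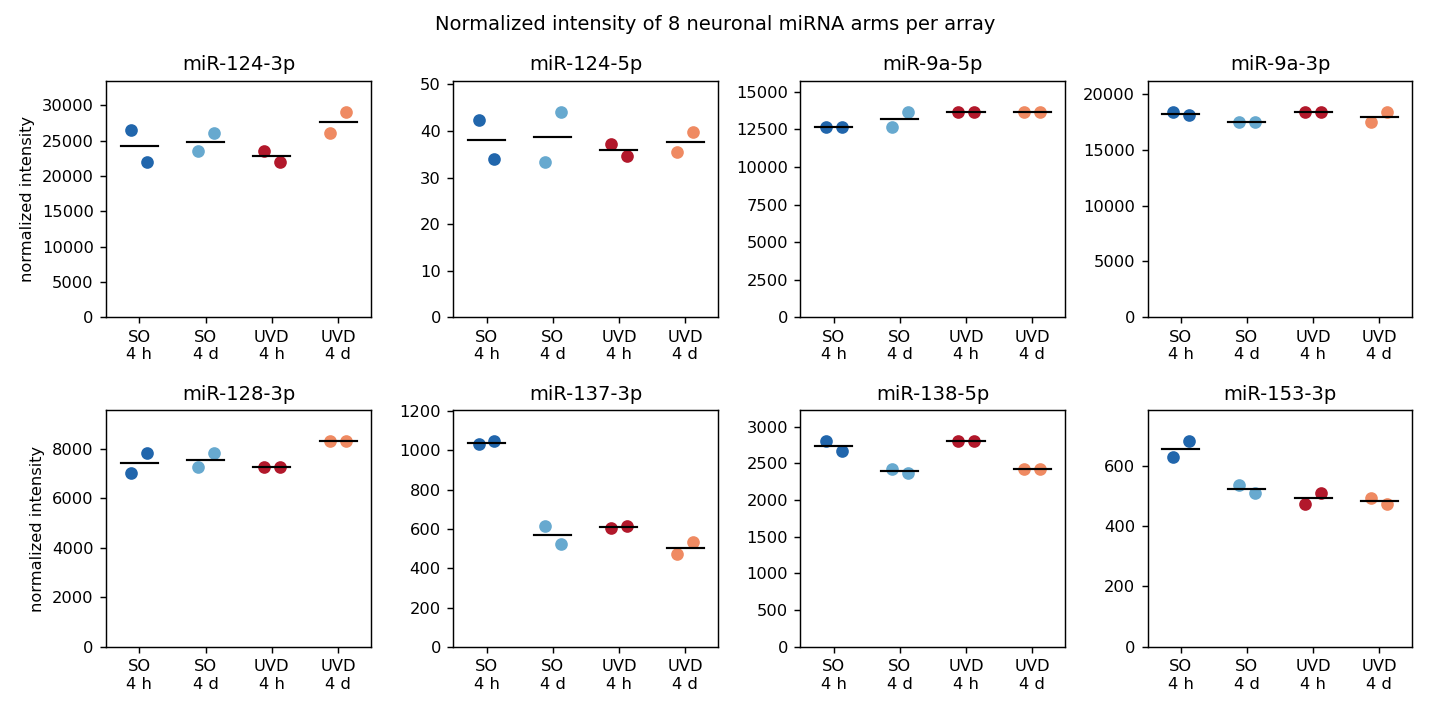
Normalized intensity (linear axis from 0) of the 8 arms detected on every array, in the 4 groups. Points are single arrays of 3 pooled rats and black lines are group means. Both SO arrays at 4 h lie above the other 6 for miR-137-3p and miR-153-3p.

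miR-124 is the most characteristic miRNA of neurons and represses messages of other cell types. Normalized intensity of rno-miR-124-3p, its main arm, was 26530 and 21949 on the SO arrays at 4 h and 23574 and 26106 at 4 d. On the UVD arrays it was 23574 and 21949 at the earlier and 26106 and 29054 at the later timepoint. Group means ran from 27580 ± 2084 (SD, n = 2) in the UVD group at 4 d down to 22762 ± 1149 (SD, n = 2) in the UVD group at 4 h. In this order all neighboring groups overlapped. The UVD timepoints, at its 2 ends, did not overlap, as for 44.3% of the tested miRNAs. The UVD difference between the timepoints was 0.28 on the log2 scale (95% confidence interval -0.03 to 0.58, adjusted p = 0.319), and the SO difference was 0.04 (-0.27 to 0.35, adjusted p = 0.884).

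rno-miR-124-5p, the arm opposite, was weak, with 53.9% of its spots well above background. Its normalized intensity was 42.3 and 34.0 in the SO group at 4 h, 33.4 and 44.1 in the SO group at 4 d, 37.1 and 34.6 on the UVD arrays at 4 h, and 35.6 and 39.9 in the UVD group at 4 d. All 4 groups overlapped. Its intervals were the widest of the 8 arms, and a log2 difference as large as 0.46 between the SO timepoints lay inside the interval (-0.43 to 0.46). Its probe designs also disagreed: at 4 d, the UVD minus SO difference ran from -0.15 to 0.43 over the 3 designs with signal on all arrays.

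The arms of miR-9a come from the same hairpins and are known for their part in neurogenesis. Normalized intensity of rno-miR-9a-5p was 12682 on both SO arrays at 4 h, 12682 and 13668 on those at 4 d, and 13668 on all 4 UVD arrays. Normalized intensity of rno-miR-9a-3p was 18373 and 18050 in the SO group at 4 h, 17472 on both at 4 d, 18373 on both UVD arrays at 4 h, and 17472 and 18373 at 4 d. Equal values arise because quantile normalization replaces a signal by the value of its rank, so that equal ranks receive equal values. Differences between replicate arrays can therefore be smaller or larger than in the total gene signal. For rno-miR-9a-5p on the UVD arrays at 4 h, signals of 11729 and 12745 became equal. For rno-miR-124-3p on the SO arrays at 4 h, signals of 22970 and 23923 became 26530 and 21949. For rno-miR-9a-5p, the UVD minus SO difference at 4 h was 0.11 on the log2 scale (-0.04 to 0.25, adjusted p = 0.396), the largest of its 4 comparisons.

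miR-128 is known to restrain neuronal excitability. Normalized intensity of rno-miR-128-3p was 7029 and 7829 in the SO group at 4 h, 7267 and 7829 in the SO group at 4 d, 7267 on both UVD arrays at 4 h, and 8310 on both UVD arrays at 4 d. Both UVD arrays at 4 d were thus the highest of the 8, a pattern chosen after the values were seen and found for 6.64% of the tested miRNAs. The UVD difference between the timepoints was 0.19 on the log2 scale (0.00 to 0.38, adjusted p = 0.314), and the UVD minus SO difference at 4 d was 0.14 (-0.05 to 0.33, adjusted p = 0.745).

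rno-miR-128-2-5p, the opposite arm of the Mir128-2 hairpin, was detected on both UVD arrays at 4 d and on none of the other 6. It entered the test through that group alone. The total signal of its brighter probe design was 4.04 and 4.11 on those arrays and between 1.62 and 3.45 on the others, and 1.56% of its spots were well above background. The mean in the UVD group at 4 d did not exceed the detection limit of the other groups (ratios of 0.863 to 0.951), so no fold change is given.

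Before scaling, the bright arms looked different. The total gene signal of rno-miR-124-3p was 32519 and 29079 on the UVD arrays at 4 d and between 20973 and 26371 on the other 6. For rno-miR-124-3p, rno-miR-124-5p, rno-miR-9a-5p, rno-miR-9a-3p and rno-miR-128-3p, both UVD arrays at 4 d had the highest unscaled signal of the 8, as had 23.2% of the tested miRNAs. The 75th percentile of the miRNAs detected on all arrays was 876 and 733 on these 2 arrays and ran from 612 to 804 on the other 6. Without scaling, the median of all tested miRNAs moved by 0.26 on the log2 scale between the UVD timepoints, while rno-miR-124-3p moved by 0.53 and rno-miR-128-3p by 0.62, with no arm passing the test.

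**Figure D2:**
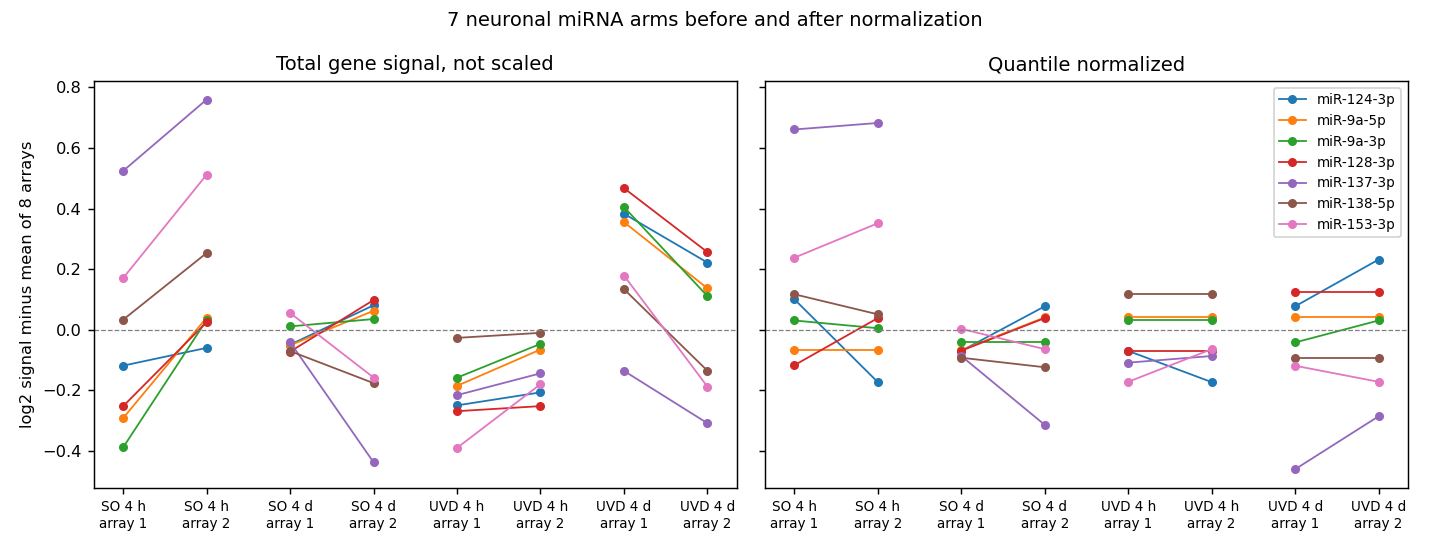
Log2 signal of 7 arms on each array minus the arm's mean over the 8 arrays, unscaled (left) and quantile normalized (right); colors mark the arms, and lines join the 2 arrays of a group only to guide the eye. The UVD arrays at 4 d stand above 0 for miR-124-3p, miR-9a-5p, miR-9a-3p and miR-128-3p on the left, and miR-137-3p stands highest on the SO arrays at 4 h in both panels.

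miR-137 is known for its action on dendrite growth and synaptic vesicle release, and its sequence is the one given above with the seed UAUUGCU. Normalized intensity of rno-miR-137-3p was 1030 and 1046 in the SO group at 4 h and 614 and 524 in the SO group at 4 d after surgery. Among the UVD arrays it was 604 and 614 at the earlier and 473 and 534 at the later timepoint. The SO arrays at 4 h stood apart from all others, and the SO arrays at 4 d overlapped those of both UVD groups. Unscaled signals showed the same separation. They were 935 and 1100 on the SO arrays at 4 h and between 480 and 632 on the other 6. Both SO arrays at 4 h were the highest for 18.2% of the tested miRNAs when normalized and for 9.24% when unscaled.

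Between 4 h and 4 d in the SO group, rno-miR-137-3p fell by 0.87 on the log2 scale (standard error 0.10, 95% confidence interval -1.13 to -0.62, adjusted p = 0.0383). Its 2 probe designs gave -0.86 and -0.88. It was 1 of 8 arms to pass, beside 1.66% of all tested miRNAs. The direction was the same under all 20 alternatives, but the call was lost under 14 of them, among them the replicate number as a block (adjusted p = 0.101). Without array 1 of the SO group at 4 d the adjusted p was 0.0269, and with any 1 of the 7 other arrays left out it was between 0.0711 and 0.138.

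**Figure D3:**
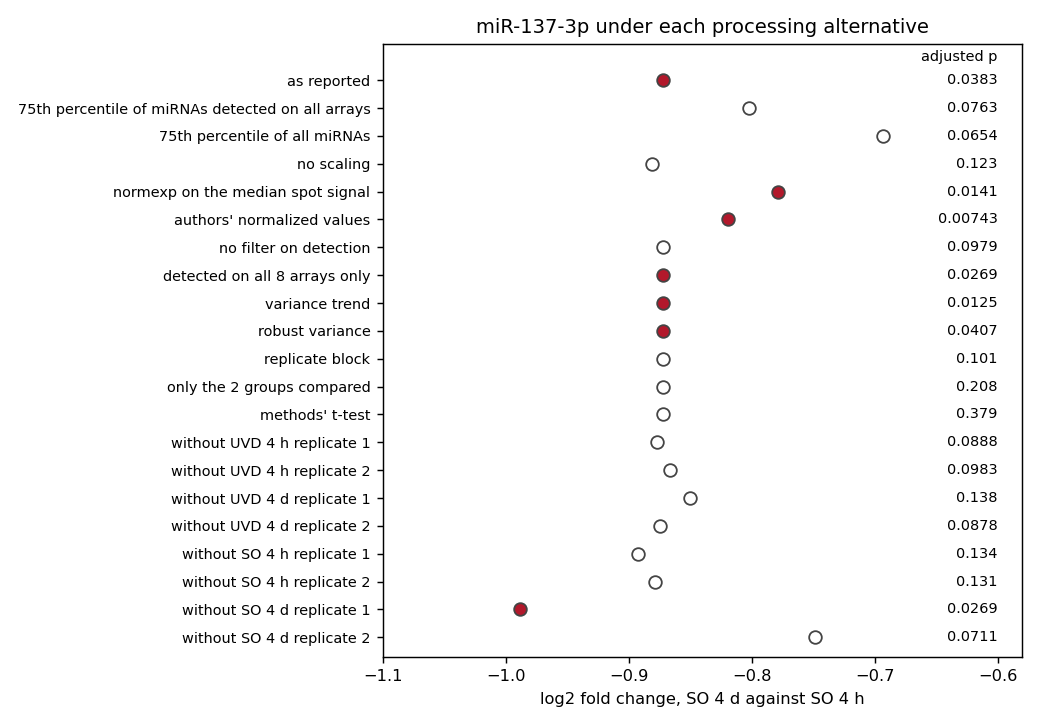
Log2 fold change of miR-137-3p between the SO timepoints as reported and under the 20 processing alternatives, with the adjusted p of each at the right (the axis does not include 0). Filled points have an adjusted p under 0.05; every value lies between -0.99 and -0.69, and 6 alternatives keep the call.

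rno-miR-137-3p was also lower in the UVD than in the SO group at 4 h, by -0.77 on the log2 scale (-1.02 to -0.51), which did not pass (adjusted p = 0.0686). This comparison shares the SO arrays at 4 h with the SO time comparison, so the high values of these 2 arrays enter both. Between the UVD timepoints the difference was -0.28 (-0.53 to -0.02, adjusted p = 0.298). At 4 d, the UVD minus SO difference was -0.17 (-0.43 to 0.08, adjusted p = 0.757), and without scaling it was 0.02. The difference between the time changes of the UVD and SO groups was 0.60 (0.24 to 0.96, adjusted p = 0.402), and did not pass.

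miR-153 is known to repress presynaptic proteins, among them SNAP-25. Normalized intensity of rno-miR-153-3p was 629 and 681 in the SO group at 4 h, 534 and 510 in the SO group at 4 d, 473 and 510 on the UVD arrays at 4 h, and 491 and 473 in the UVD group at 4 d. Like rno-miR-137-3p, it was highest on both SO arrays at 4 h, which held for 18.2% of the tested miRNAs. On the unscaled signals this no longer held for rno-miR-153-3p, since the first UVD array at 4 d (594) exceeded the first SO array at 4 h (591). The SO time difference was -0.33 on the log2 scale (-0.51 to -0.14, adjusted p = 0.13) and the UVD minus SO difference at 4 h was -0.41 (-0.59 to -0.23, adjusted p = 0.0913). Across the 8 arrays, its log2 intensity and that of rno-miR-137-3p had a Pearson correlation of 0.927, a description over arrays that include the same SO arrays at 4 h.

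miR-138 is known to limit dendritic spine size. Normalized intensity of rno-miR-138-5p was 2801 and 2675 in the SO group at 4 h, 2422 and 2370 in the SO group at 4 d, 2801 on both UVD arrays at 4 h, and 2422 on both UVD arrays at 4 d. In both operations all 4 h arrays stood above all 4 d arrays. Timepoints did not overlap for 54.3% of the tested miRNAs in the SO group and for 44.3% in the UVD group. On the unscaled signals this failed in the UVD group, where the first array at 4 d (2805) exceeded both at 4 h (2509 and 2538). The difference between the timepoints was -0.19 on the log2 scale in the SO group (-0.32 to -0.06, adjusted p = 0.148) and -0.21 in the UVD group (-0.34 to -0.08, adjusted p = 0.218), and neither passed. Without scaling, the UVD difference was 0.02. Equal normalized values within each UVD group narrow the intervals of this arm, whereas the unscaled UVD signals at 4 d were 2805 and 2327. The difference between both time changes was -0.02 (-0.20 to 0.17), and the UVD minus SO differences were 0.03 (-0.10 to 0.16) at 4 h and 0.02 (-0.11 to 0.15) at 4 d.

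**Figure D4:**
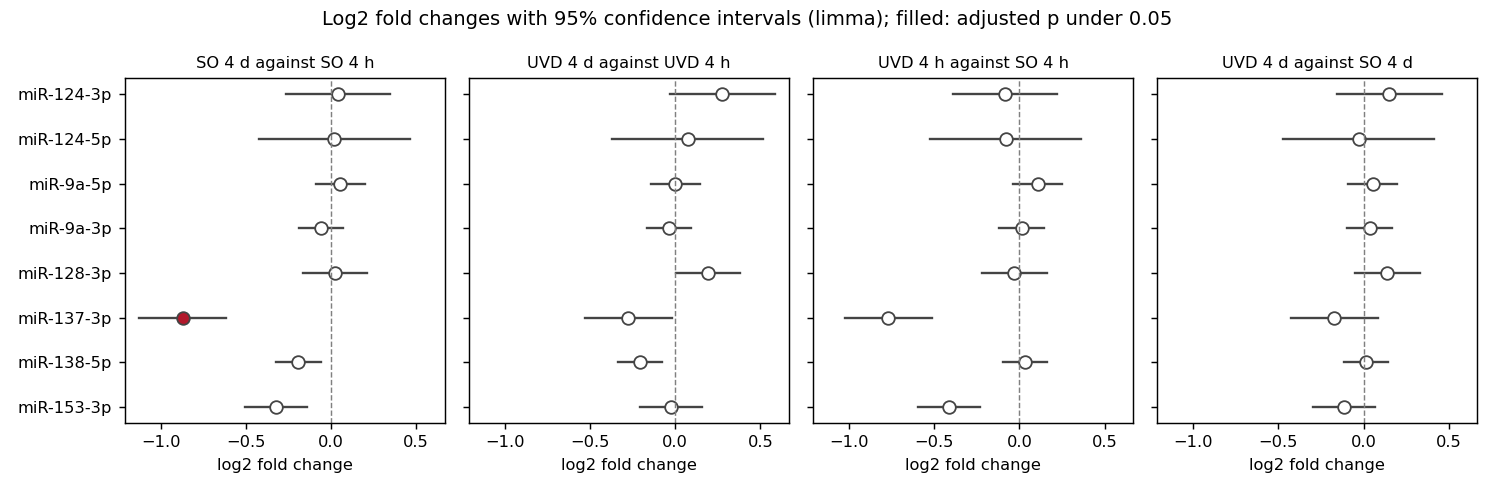
Log2 fold changes of the 8 arms (points) with 95% confidence intervals (lines) in the 4 comparisons of 2 groups, from limma. The filled point, miR-137-3p between the SO timepoints at -0.87, is the only one with an adjusted p under 0.05.

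The counts of arms stand here beside those of all tested miRNAs. Between the SO timepoints, 1 of 8 passed in limma, beside 1.66% of all, with 3 arms at an unadjusted p under 0.05 beside 23.7% of all. The arrays of the groups did not overlap for 4 of the 8 arms, beside 54.3% of all tested miRNAs. The median change of the arms was -0.02 beside 0.00. Between the UVD timepoints, 0 of 8 passed in limma, beside 0% of all, with 3 arms at an unadjusted p under 0.05 beside 15.4% of all, and 4 did not overlap beside 44.3%. In the UVD against the SO group at 4 h, 0 of 8 passed beside 0.474%, with 2 at an unadjusted p under 0.05 beside 17.1%, and 3 did not overlap beside 50.9%. At 4 d, 0 of 8 passed beside 0%, with 0 at an unadjusted p under 0.05 beside 3.79%, and 2 did not overlap beside 29.4%. For the difference of the time changes, 0 of 8 passed beside 0.237%, with 2 at an unadjusted p under 0.05 beside 8.77%. The methods' own test passed 0 arms in each of the 4 comparisons of 2 groups after Benjamini-Hochberg adjustment. At the p limit of the methods it gave 4, 2, 2 and 2 arms in the same order. Beside these stood 144, 114, 132 and 59 of the 422 tested miRNAs. The test was undefined where each group held equal values, and such miRNAs were counted as not passing. Among the arms, these were rno-miR-9a-5p, rno-miR-128-3p and rno-miR-138-5p between the UVD timepoints. Between the operations at 4 h, rno-miR-9a-5p was undefined.

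The array also held 7 other arms or related copies of these miRNAs, of which 3 were detected. The others, rno-miR-9b-5p, rno-miR-9b-3p, rno-miR-128-1-5p and rno-miR-137-5p, were detected on no array, so the change of rno-miR-137-3p could not be followed on the opposite arm. rno-miR-153-5p reached 4.70 and 5.12 on the SO arrays at 4 h. It was detected on 1 SO and 1 UVD array at 4 d, and on neither UVD array at 4 h. The lowest normalized intensity of any detected miRNA was 6.15 on the second UVD array at 4 h. On the first it was 1, the value to which all lower ones were set. The value of 6.15 lies above both SO values of rno-miR-153-5p. Unscaled, its SO signals at 4 h were 4.16 and 5.70, above the lowest detected signals of 1.76 and 2.66 on these UVD arrays. The signals of this arm are low on either scale, and no fold change is given. The opposite arms of rno-miR-138-5p were detected on every array. rno-miR-138-1-3p differed by -0.14 between the SO timepoints (-0.36 to 0.09) and by -0.18 between the UVD timepoints (-0.40 to 0.05), and rno-miR-138-2-3p by 0.04 (-0.11 to 0.20) and -0.11 (-0.27 to 0.04).

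Of 13 other neuron-enriched miRNAs, all tested, 12 were lower and 1 was higher by mean at the later SO timepoint, with a median log2 fold change of -0.20 beside 0.00 over all tested miRNAs, and 1 passed. This was rno-miR-7a-5p, known for targeting alpha-synuclein, at 868 on both SO arrays at 4 h, 452 and 318 in the SO group at 4 d, 414 and 452 on the UVD arrays at 4 h, with 402 on both UVD arrays at 4 d. It fell by 1.19 on the log2 scale in the SO group (adjusted p = 0.0437). Its equal values on the SO arrays at 4 h came from total gene signals of 745 and 956. Calls in this comparison depended on the processing: 7 of all tested miRNAs passed as reported, 1 without scaling, and 0 to 21 over the 20 alternatives. The highest of the list was rno-miR-129-5p at 0.20. Between the UVD timepoints 11 of the 13 had a lower mean (median -0.14, lowest rno-miR-218a-5p at -0.49), and 0 passed. Between the groups at 4 h 9 were lower and 3 higher (median -0.08), and at 4 d 8 were lower and 5 higher (median -0.04), again with 0 passing in limma.

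**Figure D5:**
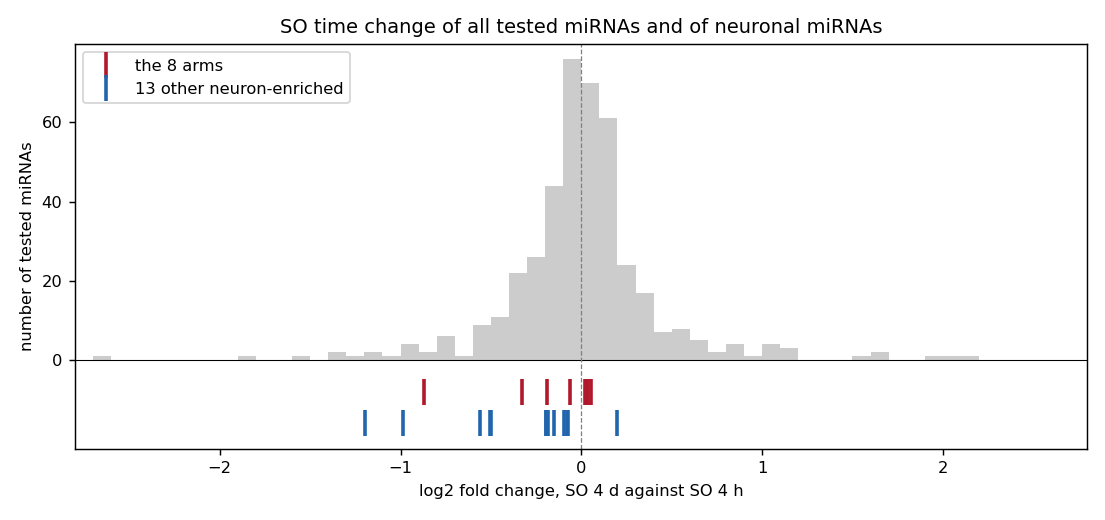
Number of tested miRNAs (gray, bins of 0.1) by log2 fold change between the SO timepoints, with the 8 arms (red ticks) and 13 other neuron-enriched miRNAs (blue ticks) below. Most arms lie near 0, and miR-137-3p lies lowest of the 8 at -0.87.

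By likeness of log2 intensity over the 8 arrays, rno-miR-10a-5p (Pearson correlation 0.987), rno-miR-10b-5p (0.972) and rno-miR-411-5p (0.972) were closest to rno-miR-137-3p. For rno-miR-153-3p, the closest were rno-miR-136-3p (0.954), rno-miR-376b-5p (0.954) and rno-miR-873-5p (0.950). For rno-miR-138-5p they were rno-miR-496-3p (0.975), rno-miR-23b-3p (0.957) and rno-miR-149-5p (0.917). The closest to rno-miR-128-3p was rno-miR-7a-1-3p (0.924), to rno-miR-124-3p rno-miR-30a-5p (0.880) and to rno-miR-9a-5p rno-miR-361-5p (0.855). These are descriptions over 8 arrays that share 1 normalization.

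The hindbrain marker list moved with rno-miR-137-3p. It holds rno-miR-10a-5p and rno-miR-10b-5p, which lie in Hox clusters and mark the hindbrain and spinal cord. Their summed normalized intensity was 709 to 748 in the SO group at 4 h and 258 to 359 at 4 d. In the UVD group it was 334 to 335 at 4 h and 264 to 278 at 4 d. Both miRNAs fell in the SO group, by 1.31 and 1.17 on the log2 scale (adjusted p = 0.0386 and 0.0437). As for rno-miR-7a-5p, these calls belong to a comparison in which 0 to 21 miRNAs passed over the alternatives. Of the microglia and leukocyte markers, 5 of 6 were higher by mean at the later SO timepoint, with sums of 3192 to 3214 (4 h) and 3711 to 3874 (4 d). Of the skeletal muscle markers, 4 of 4 were higher, with sums of 1599 to 2001 and 2022 to 2380. Most of this sum was rno-miR-133b-3p, at 1464 and 1834 on the SO arrays at 4 h and 1834 and 2111 at 4 d. Of the choroid plexus and ciliated ependyma markers 4 of 6 were higher, with sums of 5195 to 5378 and 6106 to 6420. Most of this sum was rno-miR-204-5p, with an SO difference of 0.09. Of these 6 markers 1 passed, beside 1.66% of all tested miRNAs. This was rno-miR-34c-5p, higher by 0.64 (adjusted p = 0.0386), and the same dependence on the alternatives applies to it. The erythroid sums were 934 to 955 and 1018 to 1061, with 4 of 4 markers higher. The vessel sums were 7919 to 8064 and 8208 to 8420, and the oligodendrocyte sums 54738 to 56896 and 55271 to 59718, each with 3 of 4 detected markers higher, while rno-miR-145-3p of the former list and rno-miR-219a-1-3p of the latter were detected on no array. The part of these tissues in the change of rno-miR-137-3p was not tested.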

How the data were processed

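Left MVNs were profiled on 8 Agilent rat miRNA arrays in 1 color, 2 for each of 4 groups. The deposited scanner files, read by the authors with Feature Extraction 10.7.3.1 per the file headers, hold the intensity of each spot and the background-subtracted total gene signal of each miRNA. The authors' normalized intensity values, quantile normalized in GeneSpring per their methods, were an alternative only. Here the total gene signal was quantile normalized over the 8 arrays, values under 1 were set to 1, and the values were put on the log2 scale. Group means were fitted by lmFit and eBayes of limma 3.58.1 (R 4.3.3) for 422 of 758 miRNAs, each detected on all arrays of 1 or more groups. P-values were adjusted by Benjamini-Hochberg, and the threshold was 0.05. Of the miRNAs, 377 were detected on all 8 arrays and 313 on none. Not overlapping means that every array of one group lay above every array of the other.

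The members, the lists and the tests were chosen with earlier results of these data known. The text names all 9 arms, list members that passed, some list members that were the lowest or highest of a comparison, and the miRNAs most alike the main arms. The fit was tested on simulated data with independent noise, without tied values and without a normalization step. It therefore does not test how ties or scaling affect the p-values. The number of arrays limits the precision. P-values measure the spread between pools of 3 rats as it stands after quantile normalization, which can shrink it. For rno-miR-128-3p and rno-miR-138-5p, the SD was 0 in both UVD groups, although the total gene signals of the arrays differed. Alternatives were other scalings, signals (normexp with an offset of 50 on the median spot signal), detection filters, variance models, the 2 groups alone, the methods' t-test (undefined for 8 to 13 miRNAs per comparison because of tied values), a block for the replicate number, and fits with 1 array left out. Sequences and positions are from RefSeq tables of GRCr8.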

Additional observations from a re-analysis of the deposited data

How the results depend on the processing

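Under 20 alternatives, the number of the 8 arms passing between the SO timepoints, 1 as reported, was 0 with both 75th percentile scalings, no scaling, no detection filter, the 2 groups alone, the replicate block and the methods' t-test, 2 with the authors' normalized values, 3 with normexp, and 0 to 1 on leaving out 1 array. In the UVD against the SO group at 4 h, 0 as reported, it was 1 with the authors' values, with miRNAs detected on all 8 arrays and with the 2 groups alone, 2 with normexp and with the variance trend, and 0 to 1 on leaving out 1 array. The arms passing in addition were rno-miR-137-3p, rno-miR-138-5p or rno-miR-153-3p; for the other 3 comparisons the number was 0 throughout. The 75th percentile scalings moved the median of all tested miRNAs between the SO timepoints by 0.09 and 0.20 on the log2 scale, and relative to that median rno-miR-137-3p was at -0.90 under both. rno-miR-138-5p between the UVD timepoints turned to 0.018 without scaling. Over all tested miRNAs the number passing ranged from 0 to 21 (SO timepoints), 0 to 11 (UVD timepoints), 0 to 10 (4 h), 0 to 5 (4 d) and 0 to 7 (difference of the time changes). Same-numbered replicates did not deviate together (correlations of -0.363 to 0.193 over 377 miRNAs), so the block pairs samples by number alone. The causes were not tested.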
